A study of Mus musculus with 8 samples.

Results

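The genes described here are 10 mouse genes whose products hydroxylate, fold and trim procollagen, out of 55414 genes in the count table. They were taken by name: the prolyl 4-hydroxylase subunits P4ha1, P4ha2, P4ha3 and P4hb, the lysyl hydroxylases Plod1, Plod2 and Plod3, the chaperone Serpinh1, the proteinase Bmp1 and its enhancer Pcolce. All 10 were found and all 10 passed the filter on low counts, with 4942 to 144550 counts per library. The cells were fibroblasts cultured from mouse hearts (strain C57BL/6J) and given, at passage 2, an adenovirus that carries either GFP (4 libraries) or Has2, the gene of hyaluronan synthase 2 (4 libraries). Before infection serum was withheld for 24 h, virus was left on for 5 h, and RNA was taken after 48 h more in medium with basic FGF and TGF-beta, for which the protocol gives 20 ng/mL. Both groups therefore carry an adenovirus and both received these growth factors. The labels call the genotype Wild Type, while the treatment text speaks of Has2fl/fl animals; a Cre virus named there is not analysed here. Replicates 1 and 2 were female and replicates 3 and 4 male in both groups.

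Collagen chains are modified in the endoplasmic reticulum before they can fold. Prolyl 4-hydroxylases, tetramers of alpha subunits and the beta subunit P4hb, act on prolines and make the triple helix stable at body temperature; they need oxygen, iron and vitamin C. Lysyl hydroxylases act on lysines that later carry sugars or cross-links, the chaperone HSP47 (Serpinh1) holds the finished helix during export, and the C-proteinase Bmp1, helped by Pcolce, removes the carboxy-terminal propeptide outside the cell so that fibrils can form. Fibroblasts are the main makers of fibrillar collagen in the heart. Prolyl hydroxylase and lysyl hydroxylase genes are also known targets of hypoxia-inducible factor in several cell types.

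The comparison addresses which transcripts change in cardiac fibroblasts made to express Has2. Library names in the labels give both libraries of a replicate number the same prefix, so the libraries were compared in 4 pairs. What the prefix stands for was not established here. Libraries held 46981231 to 55795187 counts, and Has2 was higher with its own virus in 4 of 4 pairs, by 7.46 to 10.16 on the log2 scale. The 9 fibroblast markers summed to 13740 to 20071 CPM (counts scaled by effective library size to 1e6 per library) in a library, none at 0. The 8 macrophage markers summed to 780 to 1936 CPM with the GFP virus and 758 to 1897 CPM with the Has2 virus, none at 0; the 6 endothelial markers to 24.5 to 47.1 CPM, the 6 cardiomyocyte markers to 3.66 to 8.59 CPM, the 5 mural markers to 5.81 to 10.56 CPM and the 4 mesothelial markers to 2.00 to 5.56 CPM over all 8 libraries. Means were under 1 CPM for 5 of the 6 cardiomyocyte, 3 of the 5 mural, 3 of the 4 mesothelial and 1 of the 6 endothelial markers. Tnnt2 carried most of the cardiomyocyte sum and Cspg4 the largest part of the mural sum. GFP replicate 1 stood apart with 678 CPM of 6 liver-type transcripts, against at most 3.07 CPM in each of the other libraries. Values without replicate 1 are given beside the results. Without it 0 genes passed between the viruses, Has2 included (log2 fold change 8.45; edgeR adjusted p = 0.0844), while 1397 genes had an unadjusted p under 0.05. In bulk RNA, fewer cells of a type and less RNA per cell cannot be told apart. Whether each culture had an animal of its own is not stated, so the p-values speak for the spread among these 8 libraries, which may be technical.

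The 3 alpha subunits of prolyl 4-hydroxylase take the same place in the enzyme and, of them, P4ha3 passed a test of the virus effect within a sex while P4ha1 and P4ha2 did not, a contrast between genes that was not itself tested, so the 250 bases before their transcription starts are shown. The sequences are from RefSeq (build GRCm38.p6), an older build than that of the counts. It holds such a stretch for 8 of the 10 members, all but Plod2 and Bmp1. They lie at chr10:59323046-59323295 (P4ha1, plus strand), chr11:54100674-54100923 (P4ha2, plus strand) and chr7:100285270-100285519 (P4ha3, plus strand). Capitals mark ACGTG and GCGTG, the core letters bound by hypoxia-inducible factor, on either strand; matches of both motifs can share bases.

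P4ha1: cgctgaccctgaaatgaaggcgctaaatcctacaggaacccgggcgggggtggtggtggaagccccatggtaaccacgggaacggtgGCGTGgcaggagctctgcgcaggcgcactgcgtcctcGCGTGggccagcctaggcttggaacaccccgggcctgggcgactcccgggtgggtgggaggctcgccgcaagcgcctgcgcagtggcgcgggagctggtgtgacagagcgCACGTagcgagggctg

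P4ha2: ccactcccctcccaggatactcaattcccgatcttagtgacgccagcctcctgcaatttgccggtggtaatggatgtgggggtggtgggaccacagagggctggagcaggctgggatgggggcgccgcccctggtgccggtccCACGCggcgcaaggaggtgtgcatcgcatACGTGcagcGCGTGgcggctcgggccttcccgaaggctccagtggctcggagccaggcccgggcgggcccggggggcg

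P4ha3: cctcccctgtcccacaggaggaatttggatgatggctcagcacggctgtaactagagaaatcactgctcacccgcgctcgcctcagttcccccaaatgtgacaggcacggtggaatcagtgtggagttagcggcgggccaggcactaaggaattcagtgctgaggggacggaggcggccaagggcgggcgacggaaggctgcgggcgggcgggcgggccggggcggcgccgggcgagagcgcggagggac

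P4ha1 and P4ha2 each held 1 ACGTG and 2 GCGTG matches, and P4ha3 held neither. ACGTG was in 5 of the 8 stretches, against 16.6% of all 32851 such stretches, the 8 included, and GCGTG in 6 of 8, against 28.2%. The GC box GGGCGG, which is bound by factors of the SP family, occurred 5 times in that of P4ha3, and 1 and 2 times in those of P4ha1 and P4ha2; it was in 7 of the 8 and in 32.7% of all. The heat shock element GAANNTTC was in 0 of 8 (6.69% of all) and CCAAT in 2 of 8 (33.8% of all). The 8 stretches had GC contents of 55.6% to 70.0%, above the median of 52.4% over all, and 3 of these motifs are rich in G and C. These matches describe the letters of the window only.

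All 10 genes were well expressed in both groups, and together they made up 0.715% to 0.914% of the counts of a library. Per kilobase of the longest transcript (CPM per kb), the chaperone Serpinh1 stood highest, at 956 ± 138 (SD, n = 8 libraries), above P4hb at 809 ± 129 in 8 of 8 libraries. P4hb is also protein disulfide isomerase, with many clients besides collagen. The ranges of Serpinh1 and P4hb over the 8 libraries overlapped, as did those of P4ha1 and Plod3. Next came the enhancer Pcolce at 378 ± 56.7, the alpha subunit P4ha1 at 232 ± 27.7 and Plod3 at 175 ± 23.6 CPM per kb, each above the next in all 8 libraries. The proteinase Bmp1 (109 ± 17.1) exceeded Plod2 (96.1 ± 25.4) in only 5 of 8 libraries. P4ha3 (65.6 ± 22.0) exceeded P4ha2 (49.9 ± 7.21) in 6 of 8, and P4ha2 exceeded Plod1 (49.3 ± 6.60) in 4 of 8, so these neighbours in the order did not differ beyond their spread. The summed alpha subunits stood at 0.320 to 0.668 times P4hb, Pcolce at 2.73 to 3.87 times Bmp1, and Serpinh1 at 0.814 to 1.03 times the collagen chain gene Col1a1, all per kilobase. Among the GFP libraries P4ha1, P4ha3, Plod2 and Serpinh1 were higher in both female than in both male cultures. These were 4 of 10 members, against 15.6% of all genes tested. With 2 libraries a sex no test was made.

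Within the families, P4ha1 made up most of the alpha subunits and Plod3 the largest part of the lysyl hydroxylases in every library, counted as shares of summed CPM per kb. P4ha1 held 63.7% to 70.1% of the alpha subunits and P4ha2 9.57% to 17.3%. The share of P4ha3 went from 19.1% with the GFP virus to 26.5% with the Has2 virus in replicate 1 and from 17.2% to 22.7% in replicate 2. In the male replicates 3 and 4 it went from 13.1% to 14.4% and from 17.9% to 17.8%. Plod3 held 46.3% to 61.9% of the lysyl hydroxylases and Plod1 13.4% to 17.6%. The share of Plod2 went from 34.8% to 40.2% and from 28.1% to 36.4% in the female replicates 1 and 2, and from 28.0% to 20.5% and from 29.7% to 21.7% in the male replicates 3 and 4. The shares were not tested.

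**Figure D1:**
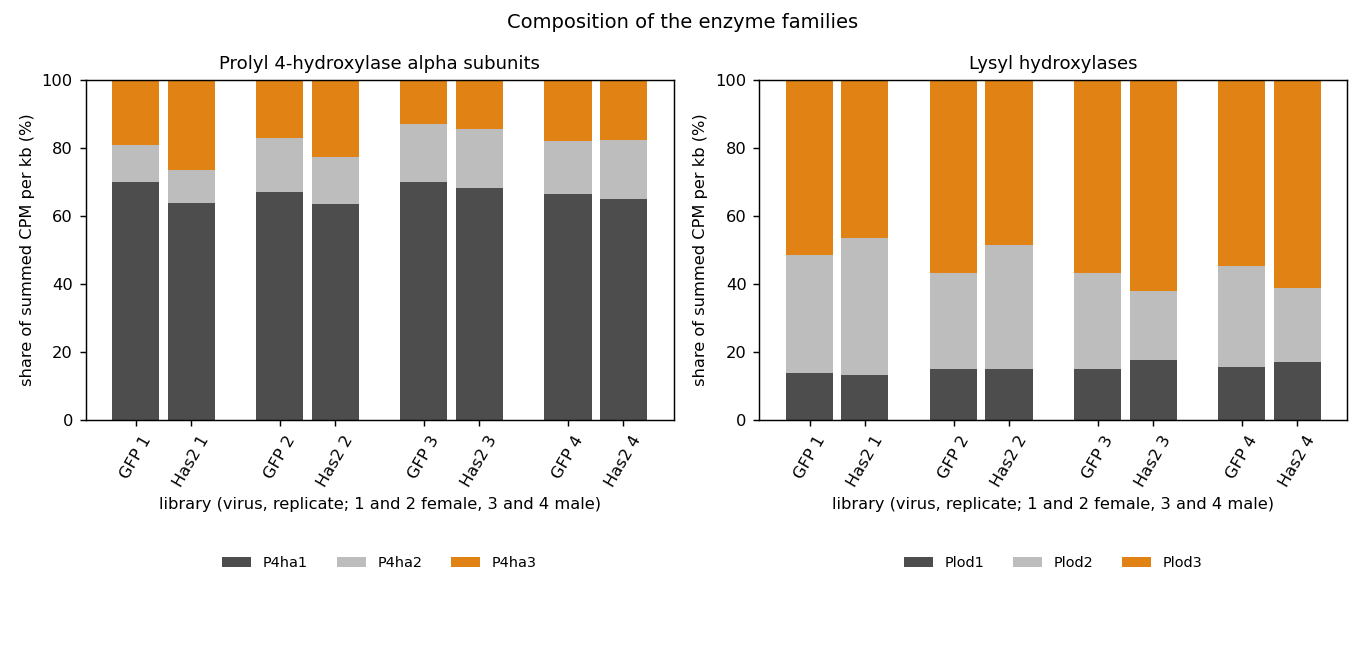
Share (%, y axis from 0 to 100) of each gene in the summed CPM per kb of the alpha subunits (left) and of the lysyl hydroxylases (right), one bar per library, with both libraries of a replicate number side by side. P4ha3 widens with the Has2 virus in replicates 1 and 2, and Plod2 widens in replicates 1 and 2 and narrows in replicates 3 and 4.

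No member passed the test between the viruses over all 4 pairs. Of the 10 genes 0 passed edgeR's quasi-likelihood test with the replicate number as a block (Benjamini-Hochberg adjusted p under 0.05 over 15150 genes), against 0.00660% of all genes tested, which is Has2 alone. At an unadjusted p under 0.05 there was 1 of 10 members, P4ha3, against 7.49% of all genes (1134 genes), and without the block 0 members passed as well; DESeq2 with the block also called 0 members. The members' median log2 fold change was 0.01, with 5 positive and 5 negative values, and that of all genes tested was -0.02. The 95% intervals of the 10 genes lay between 0.735-fold and 1.47-fold; a p that misses the threshold does not show that a gene stayed the same. The 4 libraries of each virus overlapped for 10 of 10 genes; over all genes tested 2.38% did not overlap. Without replicate 1, again 0 members passed and their median was 0.10, with P4ha1 at 0.00, P4ha2 at 0.04, Plod3 at 0.08 and Pcolce at 0.06, each of which was below 0 with all 4 pairs.

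**Figure D2:**
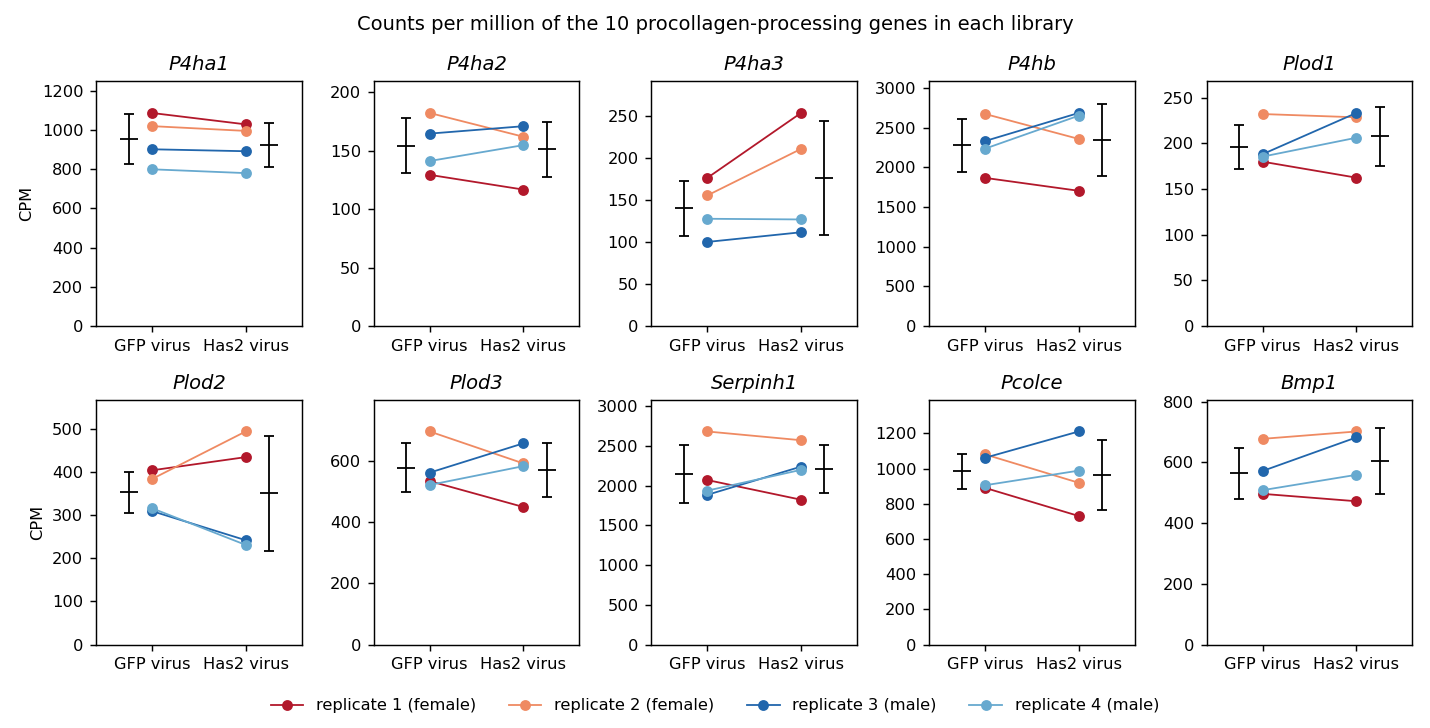
CPM of each of the 10 genes in the 8 libraries (y axis, from 0), with lines joining both libraries of a replicate number, warm colours for female and blue for male cultures, and black bars for the mean and SD of each group (n = 4). Lines of both sexes cross or diverge for most genes, while those of P4ha1 run nearly level.

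P4ha1 (ENSMUSG00000019916, chromosome 10), the main alpha subunit in most cell types, had the smallest spread of its within-pair log2 changes among the 10 (SD 0.03). With the GFP virus it stood at 1087, 1020, 902 and 800 CPM in replicates 1 to 4, and with the Has2 virus at 1029, 996, 892 and 780 CPM. It thus varied more between replicates than within pairs. Each Has2 library was below its partner, but by no more than 0.08 on the log2 scale, and the groups overlapped. Its log2 fold change was -0.04 (SE 0.08; edgeR adjusted p = 0.905). Over all genes tested, 7.96% were likewise lower in 4 of 4 pairs; 9.16% were higher in all 4, as none of the 10 was.

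P4ha2 (ENSMUSG00000018906, chromosome 11), the alpha subunit abundant in cartilage and bone cells, stood at 129, 182, 165 and 141 CPM in GFP replicates 1 to 4. In the Has2 libraries it stood at 117, 162, 171 and 155 CPM, lower in both female pairs and higher in both male pairs. The log2 fold change was -0.03 (SE 0.09; edgeR adjusted p = 0.939). The beta subunit P4hb (ENSMUSG00000025130, chromosome 11) went from 1867, 2673, 2331 and 2236 CPM to 1704, 2358, 2685 and 2651 CPM, with the same split by sex. Its log2 fold change over all pairs was 0.03 (SE 0.12; edgeR adjusted p = 0.95).

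P4ha3 (ENSMUSG00000051048, chromosome 7), the third alpha subunit, had the largest fold change of the 10. It stood at 176, 155, 100 and 128 CPM with the GFP virus and at 253, 211, 112 and 127 CPM with the Has2 virus. Both female Has2 libraries were above every GFP library, while the male Has2 libraries lay within their range. Over the 4 pairs it was 0.28 higher on the log2 scale (SE 0.12, edgeR unadjusted p = 0.0475, adjusted p = 0.648), with a 95% interval of 0.00 to 0.55. The values within pairs were 0.52, 0.44, 0.16 and -0.01.

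Among lysyl hydroxylases, Plod1 (ENSMUSG00000019055, chromosome 4), which acts on lysines of the helix, stood at 180, 232, 188 and 186 CPM with the GFP virus. With the Has2 virus it stood at 163, 229, 233 and 206 CPM, higher in both male pairs and lower in both female pairs, with overlapping groups (log2 fold change 0.07, SE 0.10; edgeR adjusted p = 0.848). Plod2 (ENSMUSG00000032374, chromosome 9) hydroxylates lysines in the telopeptides at the ends of the helix, a step towards the stable cross-links of scar collagen. It went from 404, 384, 309 and 316 CPM to 435, 494, 242 and 231 CPM, up in both female and down in both male pairs. Both ends of its Has2 range lay outside the GFP range, and the log2 fold change over all pairs was -0.08 (SE 0.15; edgeR adjusted p = 0.891). Plod3 (ENSMUSG00000004846, chromosome 5), which also adds sugars to hydroxylysine, went from 533, 695, 561 and 520 CPM to 449, 591, 656 and 582 CPM, the reverse of Plod2 in direction (-0.02, SE 0.12; edgeR adjusted p = 0.965).

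The chaperone Serpinh1 (ENSMUSG00000070436, chromosome 7) stood at 2069, 2680, 1883 and 1936 CPM with the GFP virus and at 1822, 2570, 2237 and 2197 CPM with the Has2 virus. Replicate 2 was the highest with either virus, and the groups overlapped (log2 fold change 0.05, SE 0.11; edgeR adjusted p = 0.922). The enhancer Pcolce (ENSMUSG00000029718, chromosome 5) went from 890, 1080, 1061 and 905 CPM to 730, 919, 1211 and 988 CPM, lower in both female and higher in both male pairs (-0.05, SE 0.12; edgeR adjusted p = 0.92). The proteinase Bmp1 (ENSMUSG00000022098, chromosome 14) went from 496, 677, 571 and 508 CPM to 472, 701, 682 and 559 CPM. It was higher in 3 of 4 pairs, with a log2 fold change of 0.09 (SE 0.09; edgeR adjusted p = 0.777).

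**Figure D3:**
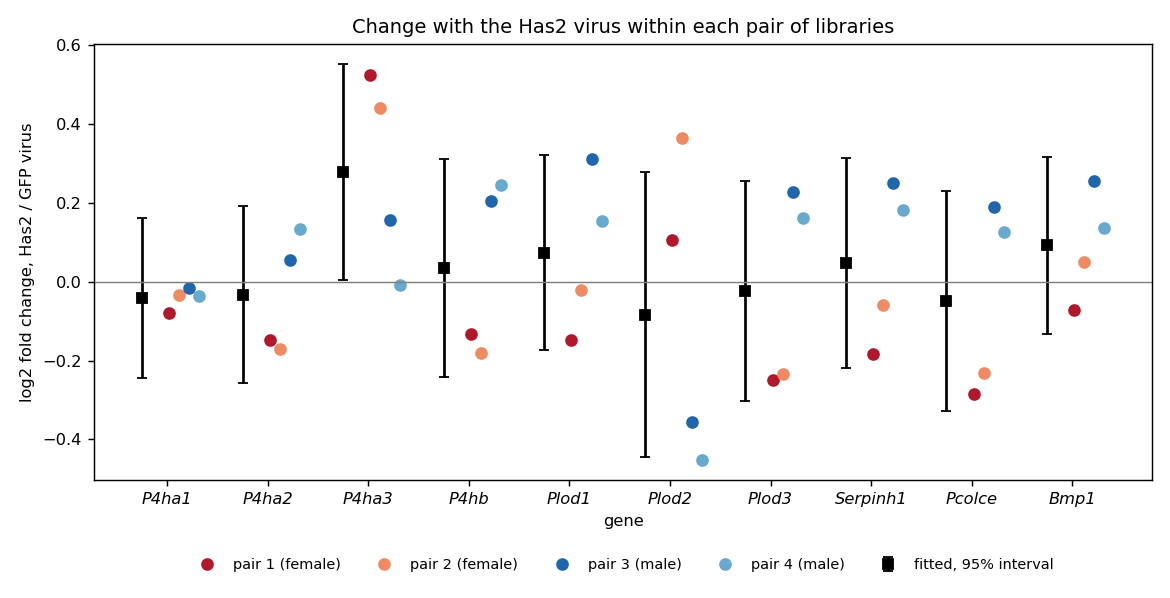
Log2 fold change (Has2 over GFP virus, y axis) of each gene within each of the 4 pairs (coloured points) and as fitted over all pairs with its 95% interval (black squares and bars). For 7 of the 10 genes both female pairs lie on one side of 0 and both male pairs on the other, as for 34.5% of all genes tested.

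Female and male pairs often lay on opposite sides of 0, among these genes and among all genes tested. Both female pairs were on one side and both male pairs on the other for 7 of the 10 genes, against 34.5% of all genes. Sex is labelled, and the virus effect was compared between the 2 female and the 2 male pairs in a fit with the replicate block. In female pairs P4ha3 rose, with a log2 fold change of 0.48 (SE 0.09; edgeR adjusted p = 0.0138), a level 1.40 times as high; it was the only member to pass there, where 7.23% of all genes passed (2.40% higher, 4.83% lower). In male pairs Plod2 fell by 0.40 on the log2 scale (SE 0.10; edgeR adjusted p = 0.0107), a level 1.32 times lower; it was the only member to pass there, where 24.9% of all genes passed (19.2% lower, 5.68% higher). The P4ha3 value in male pairs was 0.07 (SE 0.09) and the Plod2 value in female pairs 0.23 (SE 0.10; edgeR adjusted p = 0.153). Without the replicate block neither passed (edgeR adjusted p = 0.996 for P4ha3 in females and 0.169 for Plod2 in males). When replicates or libraries were left out, P4ha3 in females ranged from 0.37 to 0.64. Without replicate 3 or 4, Plod2 in males was at -0.45 and -0.31 (edgeR adjusted p = 0.108 and 0.278).

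The difference itself, male minus female, passed for 4 of the 10 genes (edgeR adjusted p under 0.05), where 29.5% of all genes tested passed, so the count was near the background. Lower in males were Plod2 (-0.64, SE 0.14; edgeR adjusted p = 0.00538) and P4ha3 (-0.41, SE 0.12; 0.0297), a direction in which 2722 of all genes tested passed. Higher in males were Plod3 (0.44, SE 0.12; edgeR adjusted p = 0.0238) and Pcolce (0.42, SE 0.13; 0.0321), a direction in which 1748 passed. Whether passing or not, 7944 of all genes tested had a positive value and 7206 a negative one. P4hb (0.38, SE 0.13), Serpinh1 (0.34, SE 0.14), Plod1 (0.32, SE 0.13), P4ha2 (0.25, SE 0.12) and Bmp1 (0.21, SE 0.13) were also positive but did not pass, with edgeR adjusted p values of 0.0531 to 0.264. P4ha1 was at 0.03 (SE 0.13), with a 95% interval of -0.25 to 0.31. P4hb passed under 5 of the other ways of processing, for example with DESeq2 and the block (adjusted p = 0.0205), and Pcolce missed the threshold with library totals (0.37, edgeR adjusted p = 0.0511).

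These calls rest on few pairs, and most of them on the block. Without the replicate block 0 of the 10 differences passed with edgeR (adjusted p = 0.195 for Plod2 and 0.503 to 0.965 for the others), where 0.00% of all genes passed and 2014 genes had an unadjusted p under 0.05. With DESeq2 and no block 681 genes passed, Plod2 among them as the only member (-0.64, adjusted p = 0.0444). Without replicate 1, the number that holds the library with liver-type transcripts, Plod2 and Plod3 passed and P4ha3 and Pcolce did not (edgeR adjusted p = 0.0695 and 0.0708). Without replicate 3 only Plod2 passed (edgeR adjusted p = 0.0312), and without replicate 4 none of the 10 did (0.0712 for Plod2). Sex and the series of library names cannot be told apart, since the prefixes of female cultures begin with S and those of male cultures with R. The Has2 level also moved with sex: it was 9533 and 8406 CPM in the female Has2 libraries and 3209 and 4860 CPM in the male ones, and its part in the difference was not tested. The summed macrophage markers were mostly Lyz2, and their sum was lower with the Has2 virus in both female and higher in both male pairs. It went from 1936 to 1853 CPM and from 780 to 758 CPM in the female replicates 1 and 2. In the male replicates 3 and 4 it went from 1350 to 1524 CPM and from 1673 to 1897 CPM. Lyz2, Csf1r, Fcgr1 and C1qa moved as the sum did in every pair, and the other macrophage markers did not. Ptprc fell in both male pairs, and Cd68 and Mrc1 rose in both female pairs. Adgre1 rose in replicate 2 and fell in replicate 4. The summed fibroblast markers were mostly Col1a1 and Col1a2. Their sum went from 16584 to 15124, from 20071 to 19868, from 14005 to 15944 and from 13918 to 13740 CPM in replicates 1 to 4. In both male pairs Dcn, Ddr2, Postn and Lum fell, Ddr2 from 360 to 221 and from 408 to 238 CPM. Col1a1, Col1a2, Tcf21 and Thy1 rose there, Thy1 from 928 to 1020 and from 810 to 953 CPM. Pdgfra rose in replicate 3 and fell in replicate 4. The part of either marker list in the difference was not tested.

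The GC content of the transcripts moved with the difference too. Across 15123 genes, which are not independent replicates, the male minus female value had a Spearman correlation of 0.62 with GC content. Plod2, the member with the lowest GC content (43.0%), was at -0.64, where the 1246 genes around 43.1% had a median of -0.55. Plod3 (57.8%) was at 0.44, and the 1221 genes around 56.9% had a median of 0.30, with quartiles of 0.12 and 0.48. Pcolce (54.8%) was at 0.42, and the 1464 genes around 55.0% had a median of 0.27, with quartiles of 0.08 and 0.47. P4ha3 has a GC content of 54.7% and lay at -0.41, on the other side of 0 from both quartiles.

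**Figure D4:**
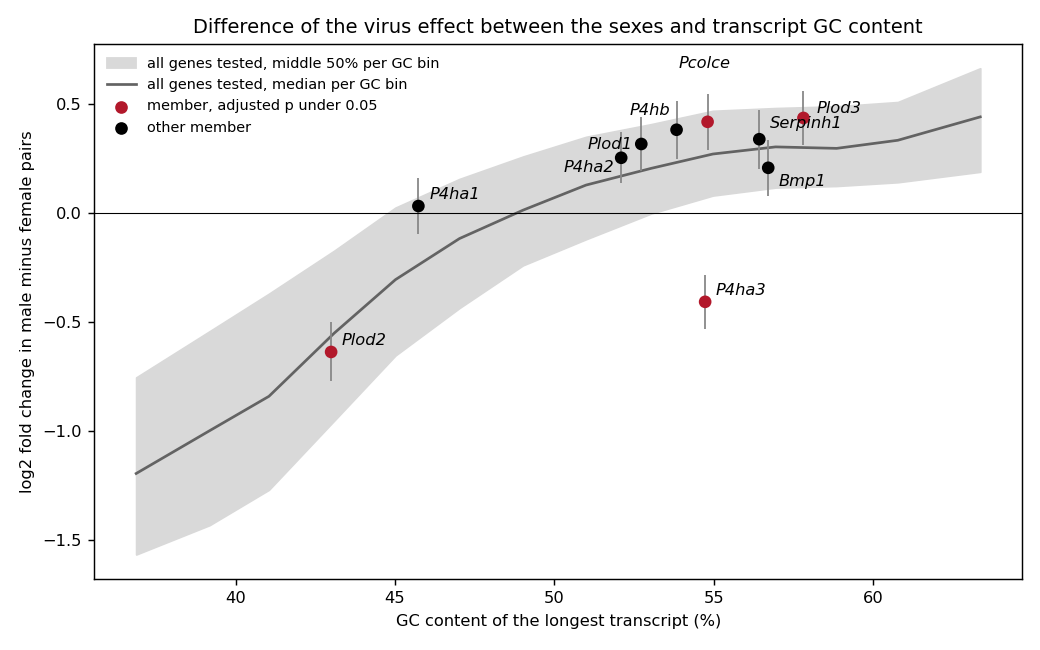
Male minus female difference of the log2 fold change (y axis) against the GC content of the longest transcript (x axis, %) for the 10 genes, with bars of 1 SE, red where the adjusted p was under 0.05; the line and band are the median and middle 50% of all genes tested per GC bin. Plod2 lies near the line at low GC, and P4ha3 lies below the band.

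With a smooth trend on GC content and transcript length removed, the male minus female value of P4ha3 was -0.79 (SE 0.10; edgeR adjusted p = 0.00368), and it was the only one of the 10 to pass, where 11.2% of all genes passed and 7.04% passed as lower in males. The rise of P4ha3 in female pairs was then 0.57 on the log2 scale (edgeR adjusted p = 0.00851). Plod2 was at -0.20 (edgeR adjusted p = 0.325), Plod3 at 0.06 (0.767) and Pcolce at 0.04 (0.842). The Plod2 value in male pairs was then -0.02 (edgeR adjusted p = 0.899). Without the block, the male minus female value of P4ha3 did not pass with the trend removed either (edgeR adjusted p = 0.697). Its rise in female pairs also did not pass there (0.57, SE 0.22).

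Exons of some members overlap other genes in the annotation, and whether the counting used strand is not known here, so reads there cannot be assigned with certainty. Plod2 shares 346 bases with Gm38391 and Plod3 529 bases with Znhit1, both on the opposite strand. Pcolce shares 112 bases with Fbxo24 on the same strand and 112 bases with Gm36266 on the opposite one. The male minus female value was 0.55 for Znhit1 (SE 0.16, edgeR adjusted p = 0.0278) and -0.74 for Fbxo24 (SE 0.42, edgeR adjusted p = 0.220). With the GC and length trend removed it was -0.02 for Znhit1 and -1.17 for Fbxo24 (edgeR adjusted p = 0.959 and 0.101). The part of shared reads in the values of Plod3 and Pcolce was not tested.

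None of the other genes of the pathway passed between the viruses over all 4 pairs, where Has2 alone did. Of 64 listed genes 61 passed the filter on low counts, and 0 of 61 passed edgeR's test with the block, against 0.00660% of all genes; 2 of 61 had an unadjusted p under 0.05 (7.49% of all genes), and DESeq2 with the block also called 0 of 61. The 3 that did not pass the filter were Colgalt2, Mep1a and Mep1b. The 2 with an unadjusted p under 0.05 were Creb3l1, a transcription factor for secretory genes (log2 fold change 0.23, SE 0.09; unadjusted p = 0.0314; higher in 4 of 4 pairs), and Tll1, a proteinase related to Bmp1 (-0.49, SE 0.20; unadjusted p = 0.0487). The smallest p values in the remaining lists were those of P3h2, a prolyl 3-hydroxylase (0.42, SE 0.18), Hsp90b1, a chaperone of the endoplasmic reticulum (-0.41, SE 0.20), Pgk1, a glycolytic enzyme induced by hypoxia (-0.21, SE 0.15), and the collagen chain Col6a2 (0.13, SE 0.10). The main substrates lay near 0, with log2 fold changes of 0.04 for Col1a1 (SE 0.12), -0.01 for Col1a2 (SE 0.12) and 0.04 for Col3a1 (SE 0.12).

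Between male and female pairs 14 of the 61 differed, 7 in each direction (edgeR adjusted p under 0.05 with the block), against 29.5% of all genes. Of 11 tested genes for prolyl 3-hydroxylation, prolyl isomerisation and galactosylation 3 were higher in males, P3h1 (0.37), P3h4 (0.46) and the isomerase Ppib (0.40). Of 10 genes for procollagen export 3 were lower, the cargo receptor Mia3 (-0.79), its relative Mia2 (-0.75) and the coat protein Sec23a (-0.54). Of 7 other proteinases and enhancers the N-proteinase Adamts14 was higher (0.46) and Tll1 lower (-0.94). Of 12 collagen chains Col11a1 was lower (-0.50), and of 10 general chaperones Sdf2l1 was higher (0.57) and Hsp90b1 (-0.89) and the lectin chaperone Canx (-0.50) were lower. Of 11 hypoxia response genes the glycolytic enzymes Ldha (0.63) and Pgk1 (0.65) were higher. With the trend on GC content and length removed, 9 of the 61 passed, 3 higher and 6 lower in males, against 11.2% of all genes. They were Mia3, Mia2 and Tll1 of the 14, and also Klhl12 (0.55), Pcolce2 (0.42) and Ero1a (0.36), which were higher, and Creb3l1 (-0.41), Vegfa (-0.39) and Adm (-0.51), which were lower; these last 6 had not passed before. Without the replicate block 0.00% of all genes passed with edgeR, and 681 genes with DESeq2.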

How the data were processed

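RNA from 8 cultures was sequenced from stranded mRNA libraries. The authors deposited one table of raw counts per gene, made with HTSeq 0.10.0 on build GRCm39 after FastQC 0.10.1, per the submitters' processing notes; which aligner, annotation release and strandedness were used is not given in the sources used here. Symbols came from GENCODE annotation for 52081 of 55414 identifiers, and transcript length and GC content from its longest transcripts.

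Counts were scaled by TMM and tested with edgeR 4.0.16 (quasi-likelihood test, R 4.3.3) on 15150 genes that passed filterByExpr, with Benjamini-Hochberg adjustment over all of them. The replicate number was a block, since the labels give same-numbered libraries of both groups one prefix in the library name. Deviations of same-numbered libraries from their group means correlated at 0.58, 0.62, 0.53 and 0.44. The second comparison, male minus female virus effect, used the same block; 3 residual degrees of freedom were left for the first and 2 for the second. Intervals are at 95%.

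Alternatives were other scalings and filters, no block, a spline trend on GC content and length (5 degrees of freedom each), DESeq2 1.42.0, limma-voom 3.58.1, other thresholds and leaving out replicates or libraries. The values within a sex for P4ha3 and Plod2 were followed after seeing the data. The members and gene lists were chosen with earlier results of these data known. Named genes were all members, Has2, 3 substrates, and from each other list the genes that passed, with, for the virus comparison, the gene of smallest p where none passed. The fits were tested on simulated data. Promoter letters came from RefSeq (GRCm38.p6).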

Additional observations from a re-analysis of the deposited data

Results flagged for a closer look

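Plod1 in GFP replicate 2, at 232 CPM, stood far from the other GFP libraries, which lay at 180 to 188 CPM. Its Has2 partner was at 229 CPM. Such a gap arises by chance in about 1 in 20 groups.

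The virus effect differed between male and female pairs for 4 genes, with male minus female log2 differences of -0.41 for P4ha3, -0.64 for Plod2, 0.44 for Plod3 and 0.42 for Pcolce (edgeR with the replicate block, adjusted p = 0.0297, 0.00538, 0.0238 and 0.0321). Each sex is represented by 2 pairs, and 29.5% of all genes tested passed.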

How the results depend on the processing

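The replicate block decided the sex difference: with no replicate block 0 genes and 0 members passed with edgeR, against 4470 and 4 with it, and for the virus comparison 1 gene and 0 members passed either way. The median SE was 0.16 with the block and 0.35 without. Depth was not the only limit: between libraries of a group, the chi-square of the counts over its degrees of freedom was 41.8 to 333. No member passed in the virus comparison under any alternative run. The number of genes passing there was 0 with library totals, 118 (2 up, 116 down) without a filter on low counts, 2 after removal of the GC and length trend, 61 with DESeq2 and the block, 7 with DESeq2 without it, and 0 to 1 when replicates or libraries were left out. For the sex difference it was 1701 with the trend removed, 0 with the trend removed and no block, 681 with DESeq2 and no block, 2524 at an adjusted p under 0.01, and 0 to 4972 when replicates or libraries were left out. Members passing numbered 1, 0 and 1 under the first 3 of these, and 0 to 5 on leaving out. The members' median log2 fold change was -0.02 to 0.11 on leaving out. The cause of these shifts was not tested.

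Values near 0 changed sign. After removal of that trend, first with and then without the block, P4hb was at -0.0793 and -0.0804, Plod1 at -0.0578 and -0.0562, Plod2 at 0.0769 and 0.1019, Serpinh1 at -0.0623 and -0.0549, Bmp1 at -0.0712 and -0.0722, Col1a1 at -0.1395 and -0.1492, Col3a1 at -0.0958 and -0.0772 and Col6a2 at -0.0235 and -0.0213. The male minus female values were then -0.0398 and -0.0407 for P4ha2, -0.0820 and -0.0896 for Serpinh1, 0.0050 and 0.0012 for Sec23a and 0.0795 and 0.0828 for Canx, and -0.0002 for P3h4 without the block. Col1a2 was at 0.0095 with RLE factors and with DESeq2 and the block, 0.0062 with DESeq2 alone, 0.0189 with TMM without Has2, 0.0067 with the CPM filter and 0.0190 without a filter. Plod3 was at 0.0029 with TMM without Has2 and without a filter, Plod2 at 0.0065 with DESeq2 and no block, and P4ha1 male minus female at -0.0164 with library totals.

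Leaving out replicates or libraries, the log2 fold change ranged from -0.0841 to 0.0550 for P4ha1, -0.0949 to 0.0972 for P4ha2, -0.0244 to 0.1938 for P4hb, -0.0049 to 0.2022 for Plod1, -0.2330 to 0.1443 for Plod2, -0.1068 to 0.1010 for Plod3, -0.0379 to 0.1705 for Serpinh1, -0.1622 to 0.1005 for Pcolce, -0.0985 to 0.1719 for Col1a1, -0.1041 to 0.1015 for Col1a2, -0.2147 to 0.2569 for Col3a1, -0.0626 to 0.3406 for Col6a2 and -0.3246 to 0.0585 for Pgk1. It kept its sign but varied over 1.5 times for P4ha3 (0.1150 to 0.4947, lowest without Has2 replicate 1 and highest without Has2 replicate 3) and Bmp1 (0.0200 to 0.2229). Male minus female it ranged from -0.0694 to 0.1285 for P4ha1, -0.0162 to 0.5100 for P4ha2, -0.0783 to 0.5174 for Bmp1 and -0.2732 to 1.3619 for Sdf2l1, and with one sign from -0.6327 to -0.2306 for P4ha3, -0.7502 to -0.5076 for Plod2, 0.2302 to 0.6505 for Plod3 and 0.2427 to 0.5954 for Pcolce.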
